A study of Mus musculus with 2 samples.

Results

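The D-type cyclins, their 2 partner kinases and the inhibitors of these complexes were followed through the cell classes of the Apc-deleted small intestine. The 9 genes were Ccnd1, Ccnd2 and Ccnd3 (the cyclins), Cdk4 and Cdk6 (the kinases) and Cdkn1a, Cdkn1b, Cdkn2a and Cdkn2c (the inhibitors). They were taken by gene symbol, and each was found once among the 31053 genes of both libraries. The cells came from the proximal small intestine of 2 VilCreER Apc fl/fl (APC) mice, which are named mouse 1 and mouse 2 here. Both mice had received 2 mg of tamoxifen intraperitoneally on 2 occasions 24 h apart, and the tissue was taken 4 days after induction. In this line the villin promoter drives a tamoxifen-inducible Cre recombinase in intestinal epithelium, so the deletion is directed to epithelium and not to leukocytes. No mice with intact Apc were part of the series, and every comparison is between cell classes or states of the same 2 animals. Recombination cannot be read from 3′-end counts, and no Apc level is given.

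D-type cyclins bind Cdk4 or Cdk6, and the active complexes phosphorylate the retinoblastoma protein, which releases E2F factors and lets a cell pass from G1 into S phase. Ccnd1 and Ccnd2 are known targets of growth-factor signalling, and loss of Apc stabilises beta-catenin, the transcriptional arm of the Wnt pathway that maintains crypt progenitors. Proteins of the INK4 family (from Cdkn2a and Cdkn2c here) bind the kinases and keep the cyclins off, whereas p21 (Cdkn1a) and p27 (Cdkn1b) bind cyclin-kinase complexes, Cdk2 complexes among them.

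All 9 genes are protein-coding in the GENCODE vM21 annotation of GRCm38, the assembly that is also called mm10. Ccnd1 (ENSMUSG00000070348) lies on the minus strand at chr7:144929931-144939925, Ccnd2 (ENSMUSG00000000184) on the minus strand at chr6:127125162-127152193 and Ccnd3 (ENSMUSG00000034165) on the plus strand at chr17:47505051-47599691. Cdk4 (ENSMUSG00000006728) lies on the plus strand at chr10:127063534-127067920 and Cdk6 (ENSMUSG00000040274) on the plus strand at chr5:3341485-3531008. Cdkn1a (ENSMUSG00000023067) and Cdkn1b (ENSMUSG00000003031) are both on the plus strand, at chr17:29090976-29100727 and chr6:134920401-134925513. Cdkn2a (ENSMUSG00000044303) and Cdkn2c (ENSMUSG00000028551) are both on the minus strand of chromosome 4, at chr4:89274471-89294653 and chr4:109660876-109667189. The 2 products of Cdkn2a share their last exons, so 3′-end counts cannot tell them apart.

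RefSeq promoter windows (GRCm38.p6) were found for 7 of the 9 genes, and not for Ccnd1 and Ccnd2. They are shown for the 2 kinases, the only ones of the 7 genes with the motif CACGTG in a window. Both kinases were higher in stem/TA-like cells than in enterocyte-like cells. So were Cdkn2c, whose windows held no match, and Ccnd1, which had no window. The 250 bases up to the start site of Cdk4 (chr10:127063285-127063534, plus strand) and Cdk6 (chr5:3343643-3343892, plus strand) are given 5′ to 3′, with capitals for the E-box CACGTG, which reads the same on both strands.
Cdk4: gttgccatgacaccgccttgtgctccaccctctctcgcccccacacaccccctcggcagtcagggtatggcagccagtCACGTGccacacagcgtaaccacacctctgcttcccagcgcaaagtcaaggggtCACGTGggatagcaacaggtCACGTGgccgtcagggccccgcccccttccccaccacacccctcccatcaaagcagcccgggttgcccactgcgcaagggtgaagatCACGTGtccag
Cdk6: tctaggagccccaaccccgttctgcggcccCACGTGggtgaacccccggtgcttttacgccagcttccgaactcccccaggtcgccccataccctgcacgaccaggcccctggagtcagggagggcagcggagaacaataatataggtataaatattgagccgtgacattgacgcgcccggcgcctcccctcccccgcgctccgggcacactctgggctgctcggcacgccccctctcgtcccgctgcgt
The Cdk4 window held 4 copies, starting 172, 118, 98 and 11 bases before the start site, and the Cdk6 window held 1, starting 220 bases before it. Among all 32851 promoter windows of this length, 1978 (6.02%) held the motif. Of the 11 windows of these 7 genes, 2 held it, those of Cdk4 and Cdk6. A match is a description of the letters in these windows and was not linked to binding.

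After filtering, 7941 cells with 81060645 unique molecular identifiers (UMIs) remained in mouse 1 and 6957 cells with 35474260 UMIs in mouse 2, with medians of 4381 and 2803 UMIs a cell. In these cells Ccnd2 was the most abundant of the 9 genes with 28317 UMIs, followed by Cdkn1b (8969), Cdkn1a (6936), Ccnd3 (5713), Cdk4 (4733), Cdk6 (3280), Ccnd1 (3060), Cdkn2c (1037) and Cdkn2a (181). Cells were clustered without these 9 genes, and 13 classes that reached 20 cells in both libraries were named from marker genes: stem/TA-like (stem or transit-amplifying), enterocyte-like, secretory-like, tuft-like, CD8/gd-T-like, CD4-T-like, ILC-like (innate lymphoid), B-like, plasma-like, macrophage-like, monocyte-like, DC-like (dendritic) and pDC-like (plasmacytoid dendritic). Paneth-like cells did not separate from other secretory cells, and the CD4-T-like class was led by genes of regulatory T cells such as Foxp3. The secretory-like class was led by enteroendocrine markers, and 7 and 6 of its cells were cycling by the rule given further on. Of the tuft-like cells, which had medians of 1431 and 1106 UMIs, 10 and 3 were cycling by that rule. The epithelial classes were small, with 118 and 28 stem/TA-like, 522 and 97 enterocyte-like, 31 and 33 secretory-like and 34 and 22 tuft-like cells in mouse 1 and mouse 2. Plasma-like markers were seen outside their own class: immunoglobulin genes took 20.2% and 6.53% of the UMIs of pDC-like cells and 10.3% and 4.04% of those of macrophage-like cells. The libraries shared 16 barcodes among the kept cells.

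Levels are given as CPM, the UMIs of a gene scaled to a common total (counts per 1e6 UMIs of a class in a mouse). Immunoglobulin genes count toward this total and took 66.8% and 65.5% of the plasma-like UMIs. Plasma-like CPM values are lowered by this share, and so are their places in an order by CPM. A UMI counts a molecule at its 3′ end, so levels of different genes need no correction for length, but fewer molecules and poorer capture of a transcript cannot be told apart. Intervals in the plots are exact 95% Poisson intervals, which cover counting error only.

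Ccnd1 was carried by stem/TA-like and enterocyte-like cells and by dendritic and macrophage classes, and was almost absent from lymphocytes. The level was 530.4 and 650.6 CPM in pDC-like cells of mouse 1 and mouse 2, a mean of 590.5 ± 85.0 (SD, n = 2), and this range lay above that of every other class. In stem/TA-like cells the level was 307.4 and 323.9 CPM (315.6 ± 11.7, SD, n = 2), which did not overlap the 145.3 and 209.6 CPM of the DC-like class below it. Enterocyte-like cells had 98.7 and 135.3 CPM, macrophage-like cells 60.4 and 112.7, and tuft-like cells 76.0 and 93.3, the last from only 5 and 3 UMIs. The macrophage-like range overlapped both others, and it was made by few cells: the median was 0 Ccnd1 UMIs a cell in both mice, and the most loaded 10% of the cells held 94.3% and 79.8% of the UMIs. Secretory-like cells had 38.3 and 36.5 CPM and monocyte-like cells 20.3 and 11.4. In the T, B and plasma classes no mouse exceeded 4.47 CPM. ILC-like cells held no Ccnd1 UMI, which allows up to 6.70 and 17.5 CPM (3 counts).

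The share of cells with a Ccnd1 UMI gave the same contrast when each cell was thinned to 1000 UMIs. It was 44.3% and 42.3% in pDC-like cells (91.8% and 89.7% without thinning) and 20.3% and 28.6% in the stem/TA-like class (83.9% and 85.7%). In CD8/gd-T-like cells it was 0.149% and 0.120% (0.396% and 0.316%). The median depth was 8251 and 6226 UMIs in pDC-like, 12120 and 18270 in stem/TA-like and 3118 and 2535 in CD8/gd-T-like cells. Of the pDC-like cells 22.9% and 20.6% were among the 8% of highest doublet scores of their library. With those cells removed, and under the other settings that use both mice, Ccnd1 made up between 62.3% and 63.8% of the D-cyclin UMIs of this class (mean of the mice).

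Ccnd2 was the most widely used D cyclin, and its highest level was in enterocyte-like cells. The level there was 1017 and 1407 CPM (1212 ± 276, SD, n = 2). CD8/gd-T-like cells followed with 620.1 and 553.8 CPM, and neither range overlapped that of the next class in the order. Stem/TA-like (442.6 and 474.3 CPM), DC-like (394.0 and 519.0), CD4-T-like (487.6 and 387.2) and tuft-like cells (212.7 and 560.0) overlapped one another. ILC-like cells had 341.5 and 348.9 CPM, macrophage-like cells 246.3 and 250.9, secretory-like cells 99.6 and 341.9, and pDC-like cells 157.4 and 218.4. Monocyte-like cells, at 139.6 and 130.3 CPM, were clear of the B-like cells below them, at 71.5 and 67.3 CPM. Plasma-like cells came last by CPM, at 51.0 and 54.4, but not by molecules per cell, as described further on.

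Within the enterocyte-like class Ccnd2 was very uneven. One sub-cluster of 71 and 15 cells, led by Gsta1, Pla2g4c and Slc26a3, held 2974 of the 4183 Ccnd2 UMIs of the class in mouse 1 and 305 of 801 in mouse 2. Its level was 2841 and 2724 CPM, with medians of 29 and 7 Ccnd2 UMIs a cell. The sub-cluster led by Fabp1 and Fabp2 (202 and 47 cells) had 506.9 and 1411 CPM, and that led by Apoa1 and Apoa4 (203 and 29 cells), genes of lipid absorption at the villus, had 319.2 and 807.1 CPM. The Gsta1-led cells thus stood above both of these in each mouse. Ccnd1 was 281.8 and 357.3 CPM in the Gsta1-led cells, 72.8 and 115.3 in the Fabp1-led cells and 12.9 and 51.5 in the Apoa1-led cells. Both cyclins thus had the same order among these named sub-clusters. A further sub-cluster of the class held no Ccnd1 UMI in either mouse. Its median was 0 Ccnd2 UMIs a cell in both mice, with at most 10 and 2 in a cell.

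Ccnd3 had its highest levels in lymphoid and dendritic classes, though Ccnd2 exceeded it in the T and ILC classes and Ccnd1 in pDC-like cells. The values were highest in ILC-like cells (223.2 and 151.2 CPM), pDC-like cells (173.4 and 163.0), CD4-T-like cells (174.5 and 121.1), CD8/gd-T-like cells (125.4 and 144.6), B-like cells (92.6 and 126.1) and DC-like cells (101.3 and 108.7). Each of these ranges overlapped the next. Monocyte-like cells (66.4 and 73.6 CPM) lay below all of them, and macrophage-like cells (32.3 and 21.5 CPM) lay below the monocyte-like cells. No epithelial class exceeded 30.4 CPM in either mouse, and plasma-like cells had 10.7 and 9.21 CPM.

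**Figure D1:**
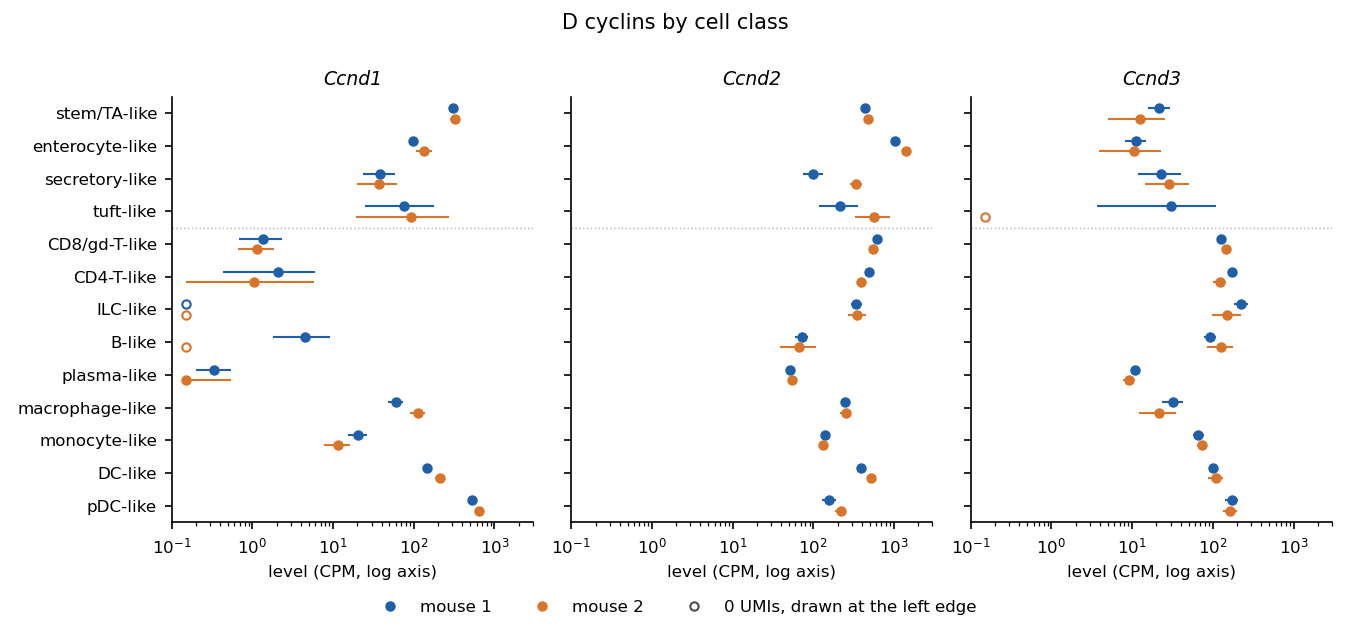
Levels of Ccnd1, Ccnd2 and Ccnd3 in 13 cell classes, in CPM on a log axis. Points are the 2 mice and lines are exact 95% Poisson intervals, which cover counting error only, and open circles mark 0 UMIs. Ccnd1 is above 300 CPM in stem/TA-like and pDC-like cells and below 5 CPM in the T, B and plasma classes, whereas Ccnd2 is above 50 CPM in every class.

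As a share of the UMIs of the 3 cyclins, Ccnd2 led in 11 of the 13 classes in both mice. In stem/TA-like cells both Ccnd1 and Ccnd2 made up a large part, with 39.8% Ccnd1 and 57.4% Ccnd2 in mouse 1 and 40.0% and 58.5% in mouse 2. Enterocyte-like cells carried 90.3% and 90.6% Ccnd2. The classes that Ccnd2 did not lead were B-like cells, with 54.9% and 65.2% Ccnd3, and pDC-like cells, with 61.6% and 63.0% Ccnd1. The B-like share in mouse 2 rests on 46 UMIs. These were also the 2 exceptions under each of the 9 other settings, in which Ccnd2 led 9 to 11 of 11 to 13 classes. DC-like cells (22.7% and 25%) and macrophage-like cells (17.8% and 29.3%) carried Ccnd1 as well, while T, ILC and plasma classes used Ccnd2 with Ccnd3 and had at most 0.55% Ccnd1.

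**Figure D2:**
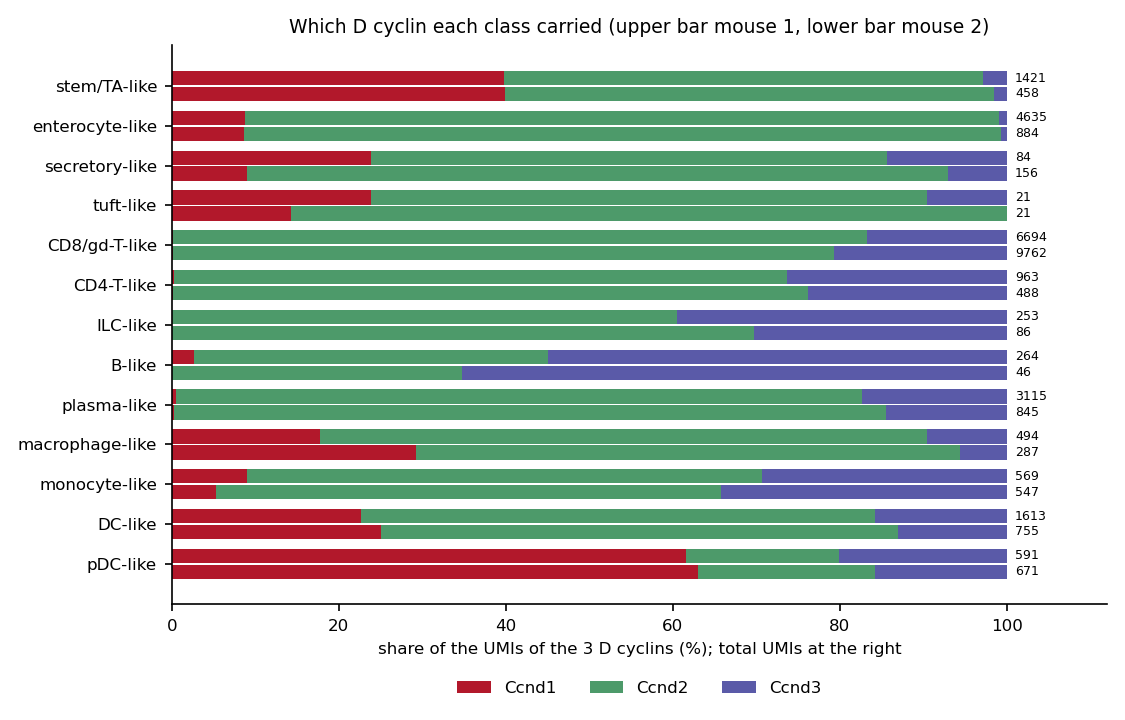
Share of Ccnd1, Ccnd2 and Ccnd3 among the UMIs of the 3 cyclins (%), for each class, with mouse 1 in the upper and mouse 2 in the lower bar and the number of UMIs at the right. Ccnd1 takes 61.6% and 63.0% in pDC-like cells and about 40% in stem/TA-like cells, and Ccnd3 takes 54.9% and 65.2% in B-like cells.

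Cdk4, the more abundant kinase of crypt progenitors, was highest in stem/TA-like cells. The level was 306.8 and 309.7 CPM (308.2 ± 2.05, SD, n = 2), and secretory-like cells were next with 128.3 and 159.2 CPM. Neither range overlapped the class below it. The other classes lay between 16.8 and 95 CPM. CD4-T-like, DC-like, tuft-like, ILC-like and macrophage-like cells overlapped one after the other. So did enterocyte-like, monocyte-like, pDC-like, CD8/gd-T-like, B-like and plasma-like cells below them. The plasma-like place is one by CPM, which the immunoglobulin share lowers.

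Cdk6 had its highest values in tuft-like cells (136.7 and 186.7 CPM, from 9 and 6 UMIs) and stem/TA-like cells (134.1 and 134.5 CPM). CD4-T-like cells had 64.8 and 104.4 CPM and CD8/gd-T-like cells 54.9 and 71.6. At the lower end by CPM, plasma-like cells had 5.16 and 7.85 CPM. Of the UMIs of both kinases, Cdk6 made up 58.6% and 65.6% in CD8/gd-T-like cells and 69.2% and 66.7% in tuft-like cells. Its share was 30.4% and 30.3% in the stem/TA-like class and 48.8% and 40.0% in the enterocyte-like class. In secretory-like cells it was 11.8% and 14.1%, and in plasma-like cells 17.3% and 22.3%. Cdk6 was thus the majority kinase transcript of both mice in CD8/gd-T-like cells, from 839 and 1524 UMIs of both kinases. The tuft-like shares rested on only 13 and 9 such UMIs. Their counting intervals, 38.6% to 90.9% in mouse 1 and 29.9% to 92.5% in mouse 2, included an equal share. A Cdk6 majority in tuft-like cells is therefore not settled by these counts. In B-like, monocyte-like, pDC-like and CD4-T-like cells the mice fell on different sides of an equal share.

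Cdkn1a (p21), a p53 target that also rises with differentiation, was an inhibitor of the epithelium and of monocytes. Enterocyte-like cells had 654.2 and 585.0 CPM (619.6 ± 48.9, SD, n = 2), above every other class in both mice. The ranges of secretory-like (183.9 and 571.6), monocyte-like (328.9 and 345.3), tuft-like (197.5 and 435.6) and stem/TA-like cells (187.9 and 244.2 CPM) overlapped in that order. In mouse 2 a single secretory-like cell held 109 of the 219 Cdkn1a UMIs of its class, and in mouse 1 the most loaded 10% of the stem/TA-like cells held 65.0% of theirs, with medians of 0 and 0.5 UMIs a stem/TA-like cell in mouse 1 and mouse 2. DC-like cells, with 92.5 and 118.7 CPM, were clear of these classes. T, B, plasma and pDC classes had at most 12.1 CPM in either mouse.

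Cdkn1b (p27), which is known to hold resting lymphocytes in G1, was highest in 2 lymphocyte classes among the 13 compared. ILC-like cells (187.5 and 209.4 CPM) and CD8/gd-T-like cells (194.5 and 191.6) led. Tuft-like cells had 167.1 and 93.3 CPM, from only 11 and 3 UMIs. B-like cells had 117.5 and 126.1 CPM and CD4-T-like cells 119.3 and 109.6. Stem/TA-like cells had 42.9 and 40.7 CPM, plasma-like cells 37.6 and 34.9, and enterocyte-like cells, the lowest, 21.9 and 21.1. The immunoglobulin share lowers the plasma-like CPM. In the edgeR fit described further on, Cdkn1b did not pass between plasma-like and B-like cells (-0.05 ± 0.25, adjusted p = 0.941). Of the UMIs of the 4 inhibitors, Cdkn1a made up 96.6% and 96.5% in the enterocyte-like and 79.4% and 83.6% in the stem/TA-like class, whereas Cdkn1b made up 93.1% and 92.8% in CD8/gd-T-like cells.

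The INK4 genes were low throughout. By CPM, Cdkn2c (p18) was highest in pDC-like cells with 27.7 and 23.1 CPM, above every other class in both mice. That level rests on 34 UMIs, and its counting interval overlapped that of the macrophage-like class. Macrophage-like (9.61 and 13.4), plasma-like (9.34 and 12.1) and CD8/gd-T-like cells (8.93 and 10.9 CPM) followed. The immunoglobulin share lowers the plasma-like values, so CPM does not settle the order of pDC-like and plasma-like cells. Cdkn2a was seen in 181 UMIs of all kept cells and never exceeded 6.71 CPM in a class. The 4 epithelial classes held no Cdkn2a UMI, which allows up to 1.63 and 5.31 CPM in stem/TA-like cells and 0.729 and 5.27 CPM in enterocyte-like cells. Being this low, Cdkn2a passed the filter on low counts in no comparison, and the other 8 genes were tested.

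**Figure D3:**
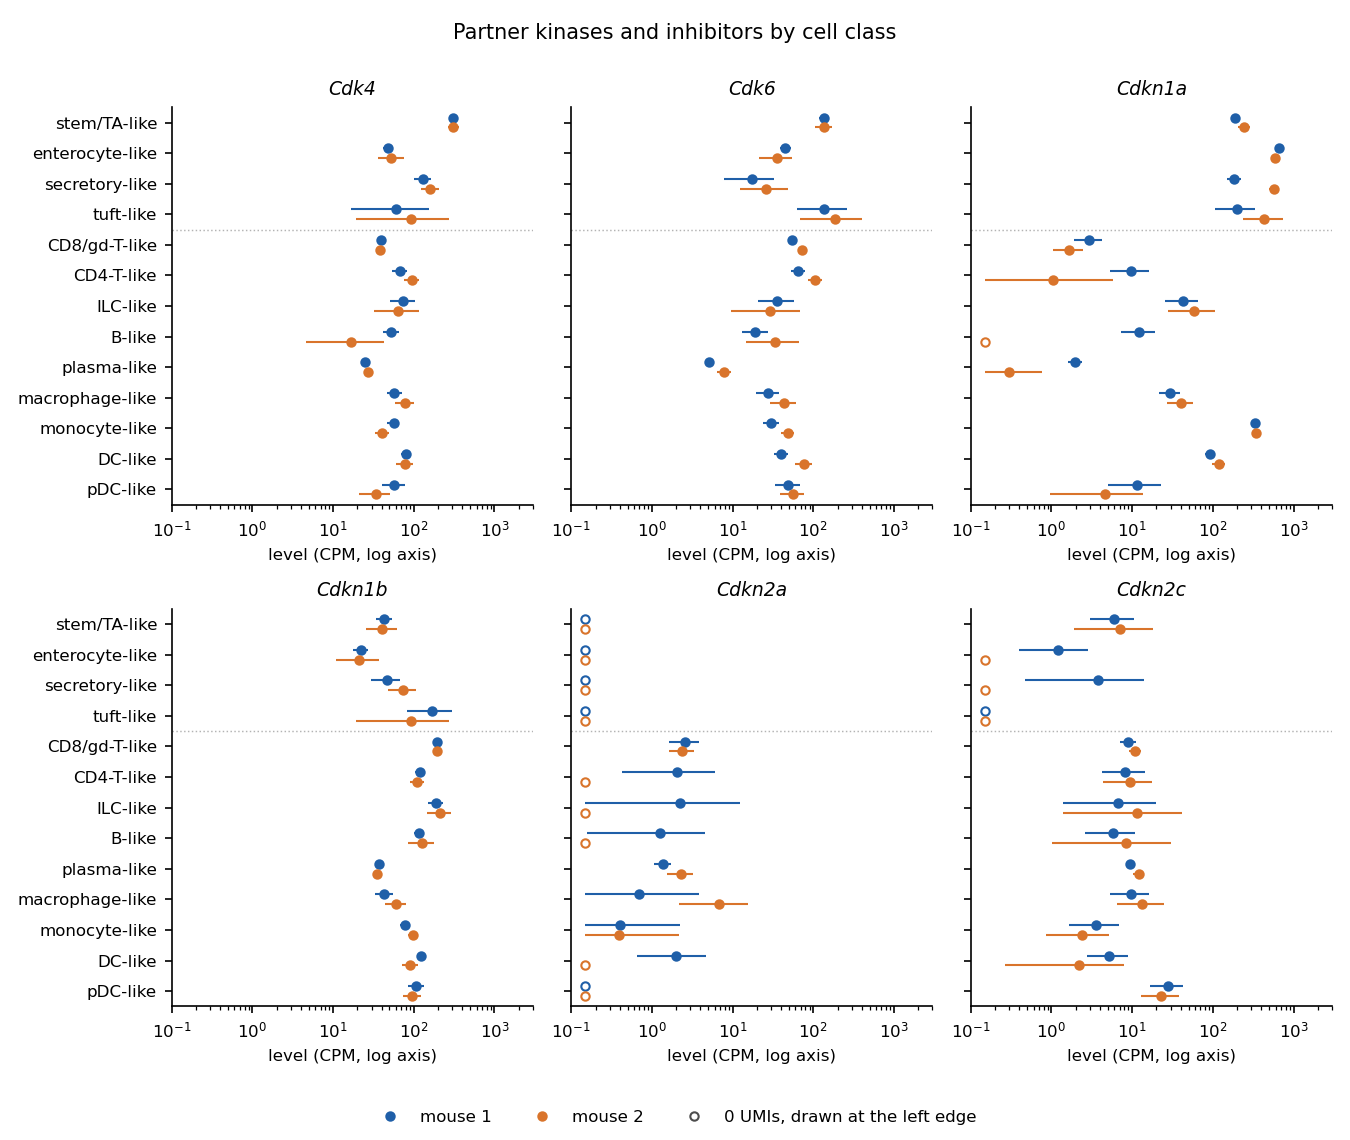
Levels of Cdk4, Cdk6, Cdkn1a, Cdkn1b, Cdkn2a and Cdkn2c in 13 cell classes, in CPM on a log axis, with the 2 mice as points, exact 95% Poisson intervals for counting error and open circles for 0 UMIs. Cdk4 is highest in stem/TA-like cells, Cdkn1a is at 585.0 CPM or more in enterocyte-like cells and at most 12.1 CPM in T, B, plasma and pDC classes, and Cdkn2a has no UMI in the 4 epithelial classes.

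Classes were compared on UMI counts summed per mouse, with edgeR's quasi-likelihood test and Benjamini-Hochberg adjustment over all genes tested, and a gene was called at an adjusted p under 0.05. Log2 fold changes are given with their standard error (SE). The classes themselves were built from expression, so the share of all genes called in a comparison includes genes that shaped the classes, though none of the 9 genes here. With the pooled comparison of cycling leukocytes left out, 37 results of the 9 genes were called, and in each of the 37 both mice had the sign of the fit.

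Between crypt and villus, stem/TA-like cells had more Ccnd1, Cdk4, Cdk6 and Cdkn2c and less Ccnd2 and Cdkn1a than enterocyte-like cells. The markers for the stem/TA-like name include proliferation genes such as Mki67 and Top2a. By the rule given further on, 107 of 118 and 27 of 28 of these cells were cycling. Class and proliferation thus cannot be told apart here or in the secretory-like comparison. The comparison called 6 of the 8 genes tested, beside 38.1% of all 11780 genes (16.4% called higher and 21.7% lower). The largest difference was that of Cdk4 (306.8 and 309.7 against 47.4 and 52.7 CPM), with a log2 fold change of 2.23 ± 0.32 (SE; adjusted p = 1.8e-05). Cdk6 (134.1 and 134.5 against 45.2 and 35.1 CPM) was higher by 1.27 ± 0.31 (adjusted p = 0.0024). Ccnd1 was higher by 1.07 ± 0.32 (adjusted p = 0.0121) with no overlap between the classes. Cdkn2c, at 5.97 and 7.08 against 1.22 and 0 CPM, was higher by 2.12 ± 0.68 (adjusted p = 0.0182).

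In the other direction, Ccnd2 (442.6 and 474.3 against 1017 and 1407 CPM) was lower in the stem/TA-like class, by a log2 fold change of -1.78 ± 0.29 (adjusted p = 8.1e-05), and Cdkn1a with one of -1.94 ± 0.53 (adjusted p = 0.00613). Ccnd3 (log2 fold change 0.33 ± 0.40, adjusted p = 0.569) and Cdkn1b (0.54 ± 0.28, adjusted p = 0.14) did not pass. Without the Gsta1-led enterocyte sub-cluster, a setting added after its Ccnd2 level was seen, the log2 fold change was -1.0 ± 0.34 for Ccnd2 (adjusted p = 0.0245) and 2.19 ± 0.37 for Ccnd1 (adjusted p = 1.0e-04), both still called. Without integration of the libraries Ccnd1 missed the threshold (0.94, adjusted p = 0.0922). In mouse 1 a single stem/TA-like cell held 236 Ccnd2 UMIs, and the most loaded 10% of the cells held 54.7% of the Ccnd2 UMIs of the class. The median was 0 and 2 Ccnd2 UMIs a cell in enterocyte-like cells of mouse 1 and mouse 2. It was 3 and 4 in stem/TA-like cells, which were deeper. By CPM the Apoa1-led enterocyte sub-cluster of mouse 1 lay below the stem/TA-like class, so the lower Ccnd2 does not hold against every enterocyte sub-cluster. The sub-cluster without a Ccnd1 UMI also held little Ccnd2, at most 10 and 2 UMIs a cell in mouse 1 and mouse 2.

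Of 20 other genes of the G1 pathway, 8 were higher and 4 lower in stem/TA-like cells, with a median log2 fold change of 1.25 against -0.02 over all genes. Those higher included Cks1b (5.51 ± 0.73), the cofactor by which Skp2 marks p27 for destruction, E2f1 (2.63 ± 0.81) and Cdk2 (2.12 ± 0.58). Skp2 itself was also called higher, and the inhibitors Cdkn1c and Cdkn2b were called lower, with so few UMIs in one class that no fold is given.

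Secretory-like cells had less Ccnd1, Ccnd2, Cdk4 and Cdk6 than stem/TA-like cells, 4 of 8 genes and all lower, beside 24.8% of all genes (11.7% called higher and 13.1% lower). Ccnd1 (38.3 and 36.5 against 307.4 and 323.9 CPM) was lower with a log2 fold change of -3.07 ± 0.38 (adjusted p = 2.0e-05). Cdk6 (17.2 and 26.1 against 134.1 and 134.5 CPM) was lower with one of -2.70 ± 0.38 (adjusted p = 5.9e-05). These groups were well apart. Cdk4 gave -1.13 ± 0.31 (adjusted p = 0.0112) and Ccnd2 -1.23 ± 0.30 (adjusted p = 0.00468). In a fit of the compared classes alone, Cdk4 (-0.81, adjusted p = 0.0563) and Ccnd2 (-0.91, adjusted p = 0.116) missed the threshold, and at clustering resolution 1.2 the Ccnd2 difference was -0.03 (adjusted p = 0.946). Ccnd3 (0.42 ± 0.44, adjusted p = 0.586) and the inhibitors did not pass (Cdkn1a 0.65 ± 0.52, Cdkn1b 0.42 ± 0.29 and Cdkn2c -1.54 ± 0.89, adjusted p at least 0.232). Of the pathway genes, 2 were called higher in secretory-like cells, the kinase inhibitors Cdkn1c (adjusted p = 2.2e-05) and Cdkn2b (adjusted p = 0.0385), with so few UMIs in the stem/TA-like class that no fold is given. The 5 called lower were Cks1b (-2.16 ± 0.60), Tfdp1 (-2.14 ± 0.53), a partner of E2F factors, E2f4 (-1.41 ± 0.32), Trp53 (-1.28 ± 0.28) and, on few UMIs, Skp2. Over all genes, the called ones split into 1376 higher and 1548 lower, and under DESeq2's size factors into 1628 and 1132, while the 4 genes stayed lower.

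Across the lineages, the mean of the epithelial classes had more Ccnd1, Ccnd2, Cdk4, Cdk6 and Cdkn1a, and that of the leukocyte classes more Ccnd3, Cdkn1b and Cdkn2c. Single classes went the other way. Ccnd1 was highest in pDC-like cells (mean 590.5 CPM), and CD8/gd-T-like cells (587 CPM) had more Ccnd2 than stem/TA-like and secretory-like cells. Secretory-like cells were low in Cdk6 (21.7 CPM), and stem/TA-like cells had more Cdkn2c (6.53 CPM) than DC-like cells (3.69 CPM). All 8 genes tested were called, beside 48.1% of all genes (23.2% called higher and 24.9% lower). The levels over all epithelial-like cells were 152.4 and 178.8 CPM for Ccnd1, against 13.0 and 22.3 CPM in leukocytes. Without immunoglobulin genes they were 155.6 and 179.1 against 25.6 and 30.3 CPM. With each class weighted equally, the log2 fold change was 3.89 ± 0.32 for Ccnd1 (adjusted p = 4.2e-09) and 4.26 ± 0.29 for Cdkn1a (adjusted p = 1.3e-10), the largest differences among the 8. Those of Ccnd2 (0.95 ± 0.13), Cdk4 (1.03 ± 0.20) and Cdk6 (0.79 ± 0.18) were smaller, and Cdk6 missed the threshold at resolution 0.4 (0.34, adjusted p = 0.124). Ccnd3 was lower in epithelium by -2.22 ± 0.21 and Cdkn1b by -1.0 ± 0.13. Cdkn2c was lower at an adjusted p of 0.00187, with no fold given since tuft-like cells held no UMI. The pathway list had 4 genes higher and 3 lower. Those higher were the inhibitors Cdkn1c (adjusted p = 4.2e-07) and Cdkn2b (adjusted p = 3.4e-04), with no fold given because single classes held few or no UMIs, Cdc25a (1.88 ± 0.21) and E2f3 (1.42 ± 0.33). Those lower were Cdkn2d (-2.43 ± 0.29), the INK4 gene for p19, Rbl2 (-1.42 ± 0.19) and Rb1 (-0.88 ± 0.23), the gene of the retinoblastoma protein.

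**Figure D4:**
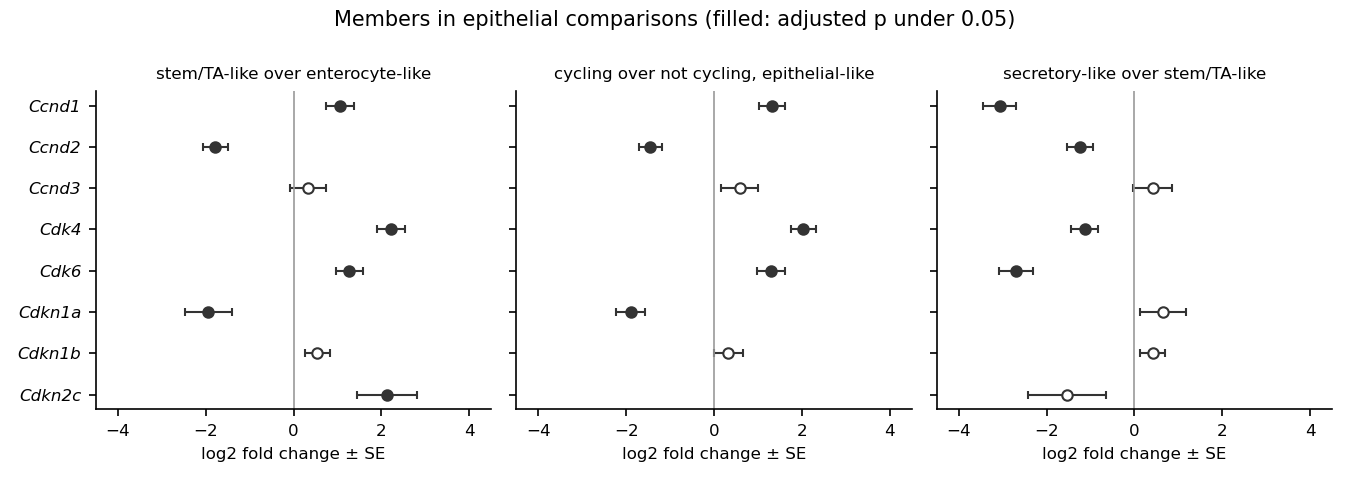
Log2 fold changes with SE of 8 genes in 3 epithelial comparisons, from edgeR on UMI sums of 2 mice, filled where the adjusted p is under 0.05. Cdkn2c was not tested in the cycling comparison. Cdk4 is at 2.23 in stem/TA-like over enterocyte-like cells and at 2.03 in cycling over non-cycling epithelial-like cells, and Ccnd2 is at -1.78 and -1.45.

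Among lymphocytes, T and innate lymphoid classes were set apart from B-like cells by Ccnd2. The 3 T and ILC classes lay between 341.5 and 620.1 CPM and B-like cells at 71.5 and 67.3 CPM, with a log2 fold change of 2.36 ± 0.29 (adjusted p = 3.8e-06). Ccnd3 did not pass (0.27 ± 0.27, adjusted p = 0.631), nor did Cdk4 (0.20 ± 0.29), Cdkn1a (-0.48 ± 0.68), Cdkn1b (0.13 ± 0.21) or Cdkn2c (0.19 ± 0.51), with adjusted p at least 0.783. Ccnd1 was called (adjusted p = 0.0478) on 7 and 0 UMIs in B-like cells, and the call was lost in 8 settings (adjusted p from 0.0596 to 0.603), the mouse block (0.0917) among them. Cdk6 (0.99 ± 0.34, adjusted p = 0.0561) passed with the mouse as a block (0.0323) and in 5 other settings. The 2 genes called, 1 in each direction, stand beside 15.1% of all genes (6.96% called higher and 8.18% lower). On the pathway list Rbl2, a pocket protein of resting cells, was higher (1.52 ± 0.28) and E2f2 was lower.

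Plasma-like cells differed from B-like cells in 5 of 8 genes, beside 26.2% of all genes (15.6% called higher and 10.6% lower), and the direction on the raw scale depended on the immunoglobulin transcripts, which took 66.8% and 65.5% of the plasma-like UMIs. Ccnd2 was 51.0 and 54.4 against 71.5 and 67.3 CPM, but 153.7 and 157.9 against 73.9 and 68.5 CPM without immunoglobulin genes, and 1.15 and 1.13 against 0.284 and 0.172 UMIs a cell. In the fit, whose TMM scaling offsets such dominant genes, it was higher by 1.27 ± 0.31 (adjusted p = 0.00397). Cdkn2c was likewise higher in the fit (log2 fold change 2.42 ± 0.46, adjusted p = 4.7e-04), with 0.211 and 0.251 against 0.0228 and 0.0215 UMIs a cell. Ccnd3 was lower on each scale, with 0.242 and 0.192 against 0.368 and 0.323 UMIs a cell and a log2 fold change of -1.70 ± 0.32 (adjusted p = 3.8e-04).

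Cdk4 was higher in plasma-like cells by 0.98 ± 0.33 (adjusted p = 0.0324), and 6 settings lost the call (adjusted p from 0.0515 to 0.112). Ccnd1 was lower (-1.97 ± 0.69, adjusted p = 0.0402) at levels under 5 CPM. It was lost in 6 settings, the mouse block (0.0679) among them, and its sign turned without integration (0.88, adjusted p = 0.661). The median over all genes was 0.16 under TMM and -0.09 under DESeq2's size factors, and the called genes split into 1833 higher and 1250 lower under the one and 1600 and 1745 under the other. Relative to either median, Ccnd2 and Cdkn2c remained higher and Ccnd3 lower. Cdk6 (-0.16 ± 0.37), Cdkn1a (-1.16 ± 0.75) and Cdkn1b (-0.05 ± 0.25) did not pass (adjusted p at least 0.294). On the pathway list 5 genes were higher, Ccne1 (2.45 ± 0.67), E2f1 (2.38 ± 0.73), Cdc25a (2.31 ± 0.35), Cks1b (1.83 ± 0.62) and Mdm2 (1.09 ± 0.29), and 2 were lower, Cdkn2d (-1.55 ± 0.34) and Trp53 (-0.84 ± 0.26).

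Myeloid classes (macrophage-like, monocyte-like and DC-like) had far more Ccnd1 and Cdkn1a than T and ILC classes. Of 8 genes 6 were called, 3 in each direction, beside 46% of all genes (26.4% called higher and 19.7% lower). Ccnd1 lay between 11.4 and 209.6 CPM in the myeloid and at 2.07 CPM or less in the T and ILC classes (adjusted p = 1.6e-11). Cdkn1a (29.5 to 345.3 against 1.04 to 58.1 CPM, ranges that overlap through ILC-like cells) was higher by 4.02 ± 0.38 (adjusted p = 2.6e-08). Ccnd3 (-1.0 ± 0.18) and Cdkn1b (-0.65 ± 0.14) were lower. Ccnd2 was lower by -0.43 ± 0.17 (adjusted p = 0.04), a call lost without the Gsta1-led sub-cluster (0.0844), and Cdk4 was higher by 0.50 ± 0.19 (adjusted p = 0.0344), a call lost in 4 settings (0.0605 to 0.0719). Cdk6 showed no difference (0.00 ± 0.10, adjusted p = 1.00), but was lower at resolution 0.4 (-0.51, adjusted p = 0.0438). Cdkn2c did not pass (-0.36 ± 0.32, adjusted p = 0.404). On the pathway list E2f1 (2.58 ± 0.44), Cks1b (2.35 ± 0.35), Tfdp1 (1.14 ± 0.31) and E2f2, which has no fold given, were higher, and Rbl2 (-2.07 ± 0.18) was the 1 lower.

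Between T classes, 1 of 8 genes was called, beside 8.68% of all genes (2.63% called higher and 6.05% lower in CD8/gd-T-like cells). Cdk4 was 38.7 and 37.6 CPM in CD8/gd-T-like and 66.9 and 95 CPM in CD4-T-like cells, a log2 fold change of -1.19 ± 0.30 (adjusted p = 0.016). The call did not hold at resolution 1.2 (-0.26, adjusted p = 0.756) or with mitochondrial UMIs up to 10% (-0.21, adjusted p = 0.86). Cdkn1b (194.5 and 191.6 against 119.3 and 109.6 CPM, no overlap) had a log2 fold change of 0.63 ± 0.24 (adjusted p = 0.115), and passed with the mouse as a block (0.0233). Cycling cells made up 9 of 2780 and 13 of 5067 CD8/gd-T-like cells and 12 of 297 and 27 of 188 CD4-T-like cells, and their part in the Cdk4 difference was not tested. The other 6 genes did not pass (adjusted p at least 0.290), with log2 fold changes of -0.54 ± 0.74 for Ccnd1, 0.30 ± 0.28 for Ccnd2, -0.27 ± 0.29 for Ccnd3, -0.52 ± 0.29 for Cdk6, -1.54 ± 0.80 for Cdkn1a and 0.05 ± 0.40 for Cdkn2c. All 4 pathway genes called were lower in CD8/gd-T-like cells: E2f2 (-4.28 ± 0.74), Cks1b (-3.88 ± 0.56), E2f1 (-2.51 ± 0.65) and Tfdp1 (-1.39 ± 0.43).

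Cells were called cycling when they had a UMI of at least 3 of 24 proliferation genes (none of them among the 9) and not cycling with at most 1. Of the epithelial-like cells 133 and 38 were cycling, 107 and 27 of them stem/TA-like, and 545 and 136 were not, so state and class cannot be told apart in this comparison. Cycling cells were also deeper, with medians of 12790 and 17770 UMIs against 5349 and 3784.

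Cycling epithelial-like cells had more Ccnd1, Cdk4 and Cdk6 and less Ccnd2 and Cdkn1a, 5 of the 7 genes tested, beside 19.8% of all 8939 genes (9.5% called higher and 10.3% lower). Ccnd1 was 235.6 and 282.0 CPM in cycling and 92.5 and 92.2 CPM in other epithelial-like cells (log2 fold change 1.33 ± 0.29, adjusted p = 0.0284). Cdk4 was 262.9 and 293.4 against 51.7 and 73.6 CPM (2.03 ± 0.29, adjusted p = 0.00968). The states did not overlap for either gene. Cdk6 (111.2 and 113.1 against 43.3 and 36.2 CPM) was higher by 1.31 ± 0.32 (adjusted p = 0.0377).

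Cdkn1a (150.3 and 236.2 against 630.6 and 653.2 CPM) was lower with a log2 fold change of -1.89 ± 0.33 (adjusted p = 0.0166). Ccnd2 was lower too, at 382.0 and 413.7 against 897.6 and 1078 CPM (-1.45 ± 0.26, adjusted p = 0.0182). That call rested on the Gsta1-led sub-cluster, without which the log2 fold change was -0.87 ± 0.38 (adjusted p = 0.148). The other 4 calls held without it. Ccnd3 (0.58 ± 0.42, adjusted p = 0.368) and Cdkn1b (0.33 ± 0.33, adjusted p = 0.529) did not pass. On the pathway list 7 genes were higher and 3 lower, with a median of 1.32 against -0.05 over all genes, and Cks1b (4.96 ± 0.39), Skp2 (3.34 ± 0.68), the E-type cyclin gene Ccne1 (3.11 ± 0.75) and Cdk2 (2.78 ± 0.71) led those higher. Among those lower were Cdkn2b and Cdkn1c, again the inhibitors (-3.02 ± 0.77 and -2.50 ± 0.62).

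Plasma-like and macrophage-like cells reached 20 cells of both states in both mice and were tested likewise. There were 103 and 43 cycling plasma-like cells against 1920 and 538 others, and 40 and 45 cycling macrophage-like cells against 332 and 132. The cycling cells were deeper here too, with medians of 29190 and 26940 against 21880 and 20120 UMIs in plasma-like and 4648 and 4057 against 1912 and 1280 UMIs in macrophage-like cells. Summed plasma markers were 21000 and 16460 CPM in cycling and 44790 and 26850 CPM in other macrophage-like cells, and their part in the results was not tested.

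Over both classes Cdk4 alone of 8 genes was called, beside 6.77% of all 8919 genes (5.38% called higher and 1.39% lower), with a log2 fold change of 0.79 ± 0.18 (adjusted p = 0.032). Cdk4 was 55.3 and 79.6 against 22.4 and 22.2 CPM in plasma-like cells and 114.8 and 93.7 against 43.2 and 74.3 CPM in macrophage-like cells, higher in the cycling cells of both classes and mice. The call was lost with Mki67 or Top2a as the sign of cycling (0.31, adjusted p = 0.228), where CD4-T-like, CD8/gd-T-like and monocyte-like cells enter the mean too, and at resolution 1.2 (adjusted p = 0.395), where macrophage-like cells were the one class left. Pathway genes called were Cks1b (3.06 ± 0.31), Tfdp1 (1.79 ± 0.37), Cdkn2d (1.42 ± 0.29) and, on too few macrophage-like UMIs for a fold, Ccne2, 4 of 18 and all higher.

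In plasma-like cells alone no gene of the 8 was called by edgeR, beside 6.62% of all genes (5.61% called higher and 1.01% lower), although 3 had an unadjusted p under 0.05. They were Ccnd2 (96.9 and 123.9 against 46.3 and 43.6 CPM), with a log2 fold change of 0.53 ± 0.19 (adjusted p = 0.15), Cdk4 (0.81 ± 0.24, adjusted p = 0.0753) and Cdk6 (14.4 and 18.9 against 4.25 and 5.83 CPM, 0.98 ± 0.30, adjusted p = 0.094). With the mouse as a block Cdk4 (adjusted p = 0.0153) and Cdk6 (0.024) passed, and Cdk4 also with cycling at 5 or more genes (1.11, adjusted p = 0.00833), while with Mki67 or Top2a its log2 fold change was 0.20 (adjusted p = 0.98). DESeq2 called none of the 8. CPM is not scaled for the immunoglobulin share and the fold changes are. Plasma-like cells had 6 of 18 pathway genes higher and none lower, Cks1b (3.55 ± 0.42), Ccne2 (2.63 ± 0.56), Tfdp1 (2.48 ± 0.44), Rbl1 (2.32 ± 0.51), Cdkn2d (1.27 ± 0.29) and Ccne1 (1.21 ± 0.29).

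In macrophage-like cells none of the 8 was called by edgeR or DESeq2 either, beside 1.24% of all genes (1.11% called higher and 0.135% lower), with 2 at an unadjusted p under 0.05. Cdkn2c was 25.1 and 26.3 against 6.57 and 2.97 CPM (log2 fold change 2.00 ± 0.54, adjusted p = 0.147) and passed without the filter on low counts (adjusted p = 0.0419). Cdk4 was the other (0.76 ± 0.28, adjusted p = 0.294). Cks1b (2.56 ± 0.46) was the 1 pathway gene called. Ccnd1 was higher in cycling cells of mouse 1 (129.1 against 38.5 CPM) and not of mouse 2 (111.2 against 116.0). The difference of the cycling effect between both classes was called for none of the 8 and for 0.0224% of all genes. For Ccnd2 it was -0.86 ± 0.28 (adjusted p = 0.605) and for Cdkn2c 1.91 ± 0.61 (adjusted p = 0.605), the 2 genes with an unadjusted p under 0.05.

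**Figure D5:**
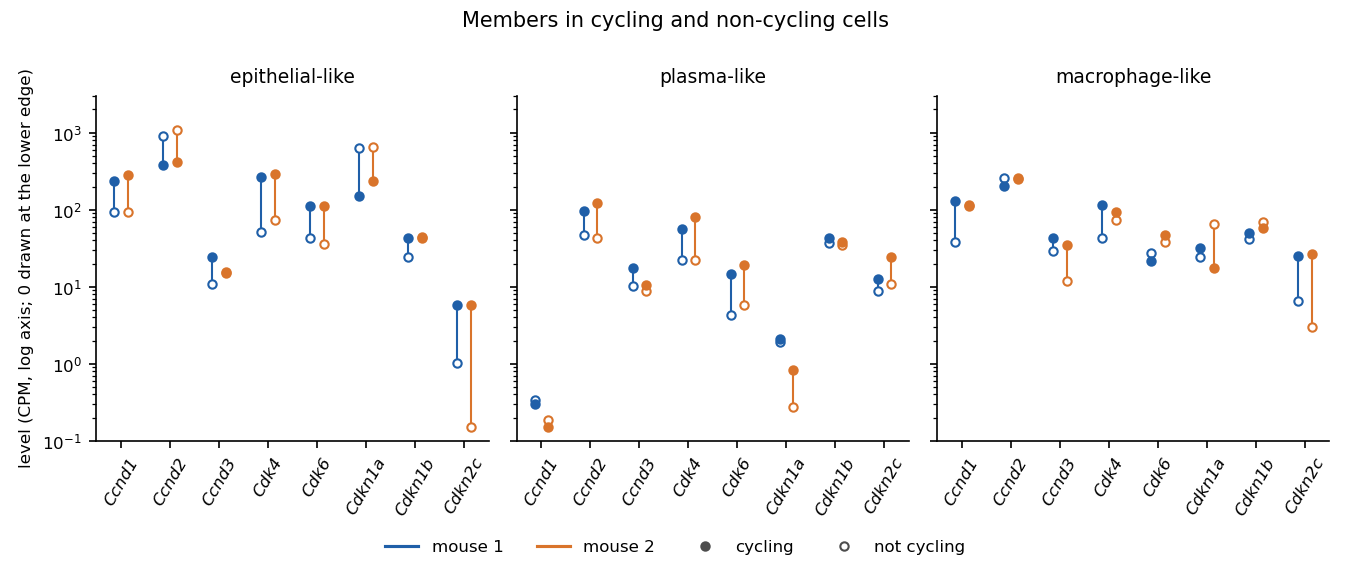
Levels of 8 genes in cycling (filled) and non-cycling (open) epithelial-like, plasma-like and macrophage-like cells, in CPM on a log axis, with a line joining both states of a mouse and values of 0 at the lower edge. Cdk4 is higher in cycling cells in all 6 pairs, while Ccnd2 is lower in cycling epithelial-like cells (382.0 and 413.7 against 897.6 and 1078 CPM) and higher in cycling plasma-like cells (96.9 and 123.9 against 46.3 and 43.6 CPM). CPM is not scaled for the immunoglobulin share, and edgeR did not call the plasma-like Ccnd2 difference (adjusted p = 0.15). Without the Gsta1-led sub-cluster it did not call the epithelial-like one either (adjusted p = 0.148).

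Cycling DC-like cells numbered 63 and 16, too few in mouse 2 for a test. Ccnd1 was 113.5 and 124.7 CPM in them and 191.0 and 266.7 CPM in other DC-like cells, and Cdk4 was 104.8 and 82.3 against 56.4 and 62.0 CPM. Both states were apart in each mouse, with Ccnd1 lower and Cdk4 higher in the cycling cells. Cdkn1a was 52.4 and 31.9 against 132.6 and 196.4 CPM. No pDC-like or ILC-like cell was cycling by this rule.

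Over the 26 sums of class and mouse, the genes whose level was most like that of Ccnd1 among 11780 genes were Tsc22d1 (Pearson r = 0.867), Rnd3 (0.860) and Tcf7l2 (0.855), the last a transcription factor of the Wnt pathway. Most like Ccnd2 were Slc9a3r1 (0.893), Ndufb7 (0.872) and Sap30l (0.847). Most like Ccnd3 were Stk4 (0.928), Usb1 (0.916) and the INK4 gene Cdkn2d (0.906). These are correlations of log2(CPM + 1) over sums that share 2 libraries, given as a description.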

How the data were processed

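Single-cell libraries of 2 APC mice, made with 10x 3′ v3 chemistry from digested proximal small intestine sorted on DAPI to remove dead cells, were analysed. Per the labels and file headers, the deposited matrices hold UMI counts without normalization, from Cell Ranger 6.1.2 and mm10 (release of the annotation not given in the sources used here). The libraries held 9645 and 8800 barcodes with 85670711 and 38716743 UMIs. Barcodes with over 100 genes, over 400 UMIs, under 5% mitochondrial and under 10% haemoglobin UMIs were kept, with genes seen in at least 3 cells for clustering.

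RPCA integration of both libraries used Seurat 5.3.0 under R 4.3.3 (2000 variable features, 30 dimensions, resolution 0.8), and epithelial clusters were clustered again with 20 dimensions. The 9 genes, 20 other genes of the G1 pathway and 24 proliferation genes were left out of the features. So were the S and G2/M gene sets of Seurat and the V, D and J genes of immunoglobulins and T-cell receptors. A class name needed at least 3 markers, each in 10% or more of its cells and with a log2 fold of 1 or more over the rest. The markers for the stem/TA-like name included the proliferation genes Mki67, Top2a and Tk1, and also Pcna, Mcm5 and Mcm6. The cluster with markers of both B and plasma cells was left unnamed by a rule added after its values were seen, and secretory-like took the place of the planned Paneth-like class. Unnamed clusters (411 and 112 cells), acinar-like cells (176 in mouse 1) and neutrophil-like cells (19 and 9) entered no comparison. Names of classes can differ from those of the authors, whose annotation was not used here. Scrublet (scanpy 1.11.5) called 1 and 0 doublets and so did not work. Doublets were kept, and an alternative removed the 8% of highest scores.

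UMI counts of each class were added up within a mouse, and these sums were tested with edgeR 4.0.16 (TMM, filterByExpr, glmQLFit and glmQLFTest, two-sided). All 13 classes entered 1 fit, and a mean over classes weighted them equally. The SE is the log2 fold change divided by the root of F. Cells with UMIs of 2 proliferation genes had no state. Same-numbered sums are from 1 animal and so are paired by design, and a fit with a mouse block was run beside the unblocked one. Other settings tried were DESeq2 1.42.0, genes of low counts kept, the compared classes alone, no integration, resolutions 0.4 and 1.2, mitochondrial UMIs under 10%, immunoglobulin genes or doublets left out and other rules of cycling. The fits were tested on simulated data. By the naming rule, the 9 genes were followed in every comparison, with up to 6 pathway genes past the threshold that had the largest changes. The text gives values for those that were called and, in most comparisons, for those that were not. For some genes of which a class held very few UMIs no fold is given, and the Cdkn2c folds in epithelium rest on few UMIs. The genes, lists and tests were chosen with earlier results of these data known. With 2 mice, depth and the number of cells limit rare classes, and intervals cover counting error only.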

Additional observations from a re-analysis of the deposited data

Results flagged for a closer look

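The cycling effect differed between macrophage-like and plasma-like cells for 2 genes, neither of them among the 9. By the interaction term in edgeR, the log2 difference was -3.07 for Gzma (adjusted p = 0.018) and -5.95 for Arhgap19 (adjusted p = 0.0373).

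Signal of the 9 genes was also seen in barcodes and cells that entered no comparison. In barcodes that failed the filters, Ccnd2 was at 133 and 372 CPM and Cdkn1a at 45.5 and 38.5 CPM in mouse 1 and mouse 2. In the acinar-like cells of mouse 1, Ccnd2 was at 31.5 CPM. In neutrophil-like cells, of which there were 19 and 9, Cdkn1b was at 257 and 769 CPM and Cdkn1a at 342 and 185 CPM, levels that rest on few cells.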

How the results depend on the processing

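Of 1043 results of the 9 genes under alternatives with a test, 992 kept their direction and their side of the threshold, 34 lost a call in the same direction, 15 gained one and 2 reversed. Those 2 were Cdk6 in myeloid over T and ILC classes at resolution 0.4 (-0.51, from 0.00 in the main fit) and Ccnd1 in plasma-like over B-like cells without integration (0.88). The causes were not tested.

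The number of the 9 genes called moved by over 1.5 times in these settings. For secretory-like over stem/TA-like cells it was 2 with only the compared classes. For T and ILC over B-like cells it was 1 with DESeq2, without integration and without the Gsta1-led sub-cluster. For plasma-like over B-like cells it was 3 at resolution 0.4 and with only the compared classes. For CD8/gd-T-like over CD4-T-like cells it was 2 with DESeq2, without the filter on low counts and under the replicate block (mouse as the block), and 0 at resolution 1.2 and with mitochondrial UMIs under 10%. For cycling leukocytes it was 0 with Mki67 or Top2a (which adds CD4-T-like, CD8/gd-T-like and monocyte-like cells) and at resolution 1.2 (which leaves macrophage-like cells alone), and 2 with cycling at 5 or more genes. From 0, it was 2 under the block and 1 with cycling at 5 or more genes in cycling plasma-like cells, and 1 without the filter on low counts in macrophage-like cells. Ccnd2 led 11 and 11 of the classes without replicate 1 or 2. With a mouse left out, no fold change has a test.

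With the mouse as a replicate block, 6 calls of the 9 genes changed, each given beside its result, and no other call did. Over all genes, the block moved the calls from 1023 to 1763 (CD8/gd-T-like over CD4-T-like), 1772 to 3519 (cycling epithelial-like), 604 to 1045 (cycling leukocytes), 590 to 1261 (plasma-like), 111 to 282 (macrophage-like) and 2 to 25 (their difference). For the last 4 in that order, no filter on low counts gave 1071, 1052, 523 and 113, and cycling at 5 or more genes gave 1208, 1578, 170 and 9. With Mki67 or Top2a there were 223 in leukocytes, 187 in plasma-like cells and 0 for the difference. DESeq2 gave 180 in macrophage-like cells and 27 for the difference, which was 5 without integration and 1 without doublets. Resolution 1.2 gave 107 in cycling leukocytes, here macrophage-like cells alone, and only the compared classes gave 1482 in place of 2924 for secretory-like over stem/TA-like cells.

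The 2 mice, 28 stem/TA-like cells in mouse 2 and few UMIs of Cdkn2a, Cdkn2c and lymphocyte Ccnd1 limit the precision. Tuft-like levels rest on fewer than 30 UMIs a gene in each mouse.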

Other observations

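Among plasma-like cells, the cluster led by Mki67, Aspm and histone genes (144 and 65 cells) had more CPM of Ccnd2, Cdk4 and Cdkn2c than the main plasma-like cluster (1810 and 556 cells). Ccnd2 was 110.1 and 139.0 CPM against 46.6 and 42.7 CPM, Cdk4 61.2 and 63.3 against 22.3 and 22.3 CPM, and Cdkn2c 15.6 and 24.6 against 9.04 and 10.4 CPM. CPM is not scaled for the immunoglobulin share: without immunoglobulin genes Cdkn2c was 27.4 and 38.3 against 28.6 and 34.3 CPM. This is a description with no test, and the test of cycling over other plasma-like cells called none of the 8 genes tested.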
